A study of Mus musculus with 4 samples.

Results

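Protein phosphatases that act on tyrosine were followed in oocytes in which Parp12, a member of the PARP family of ADP-ribosyltransferases, had been knocked down. The members are all genes whose symbol is Dusp or Ptpn followed by a number, or Ptpr followed by a letter with or without a number. They number 62 of the 55453 genes in the deposited count table: 24 Dusp, 17 Ptpn and 21 Ptpr. The study compared 2 control libraries, labelled wild type, with 2 libraries labelled Parp12 knockdown. All were messenger RNA of mouse oocytes taken directly from the ovary at the germinal vesicle stage, in which the nucleus is still intact and meiosis is arrested. The sources used here do not give strain, age, the number of animals pooled or the way Parp12 was knocked down. No label ties a replicate to its own animal or collection, and p-values therefore reflect the spread among these libraries alone, which may be technical.

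These enzymes remove phosphate from proteins through a cysteine in their active site, and so reverse the work of tyrosine kinases. The Ptpn genes encode phosphatases inside the cell, and most Ptpr genes encode receptor-like phosphatases that span the plasma membrane. The Dusp enzymes, the dual-specificity phosphatases, act on tyrosine and on serine or threonine, and the typical ones switch off the MAP kinases ERK, JNK and p38. In mouse oocytes ERK is largely inactive during the arrest and is switched on through Mos once meiosis resumes, and Dusp7 is known from work on oocytes as a phosphatase of meiotic resumption.

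The libraries held between 35805122 and 45230773 counts, and levels are given as CPM, counts per 1000000 of the library total. With 3 counts as the limit, a gene at 0 could have reached 0.0663 to 0.0838 CPM, depending on the library and for counting error only. Parp12 itself (chromosome 6, 39086410 to 39118349, minus strand, mm10) had 316 and 230 CPM in the controls against 0.752 and 2.40 CPM in the knockdowns. It fell by 7.51 on the log2 scale (SE 0.34) with an adjusted p of 1.27e-07 by edgeR, and of 0.280 by limma-voom. It was the only one of 15868 tested genes that passed edgeR's quasi-likelihood test at an adjusted p under 0.05, a share of 0.00630%. All 14 oocyte markers had counts, with sums of 34053 and 35174 CPM in the controls and, higher in both, 35449 and 36878 CPM in the knockdowns. At an unadjusted p under 0.05 by edgeR 1 of them was lower and 2 were higher, and DESeq2 called 2. For comparison, edgeR put 5.51% of its 15868 genes under that cutoff in either direction. DESeq2 called 1.77% of the genes to which it gave an adjusted p. Whether these markers differ from other genes was not tested. Of 18 granulosa and cumulus markers 8 were at 0 in all libraries, among them Amh, Amhr2, Foxl2, Inhba and Inhbb. The other 10 had counts, and 5, Kitl among them, had enough to be tested. The list summed to 168 and 155 CPM in the controls against 135 and 154 CPM in the knockdowns. Theca and stroma markers summed to between 2.58 and 9.38 CPM, with Col1a2, Col3a1 and Mgp at 0. Endothelial markers summed to between 153 and 174 CPM, with Cdh5, Egfl7, Emcn and Tie1 at 0 and most of the sum from Pecam1, the remainder including the member Ptprb. Leukocyte markers summed to 3.16 and 4.71 CPM in the controls against 8.03 and 7.96 CPM in the knockdowns, with 6 of 12 at 0 and the member Ptprc in the list. Red blood cell markers summed to at most 1.69 CPM. The part of these other cells in the results below was not tested.

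Of the 62 genes, 53 had enough counts to be tested, 3 had counts in 1 library only and 6 had 0 counts in all 4 libraries. The 6 were Dusp3, Dusp15, Dusp21, Dusp26, Dusp27 and Ptpn7. Those with counts in knockdown replicate 2 alone were Dusp6, a cytoplasmic ERK phosphatase, with 75 counts, Ptpn20 with 24 and Ptprc, the leukocyte antigen CD45, with 12. Summed over its members, the Dusp family had 815 and 703 CPM in the controls against 752 and 718 CPM in the knockdowns. The Ptpn family had 1233 and 1187 CPM in the controls against 1164 and 1158 CPM in the knockdowns. For the Ptpr family the sums were 598 and 561 CPM in the controls against 623 and 616 CPM in the knockdowns. A few members held most of each family's counts: Dusp14, Dusp16 and Dusp7 took 66.3% of the Dusp total, Ptpn11, Ptpn21 and Ptpn2 took 76.8% of the Ptpn total, and Ptprg, Ptprf and Ptprr took 53.3% of the Ptpr total.

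**Figure D1:**
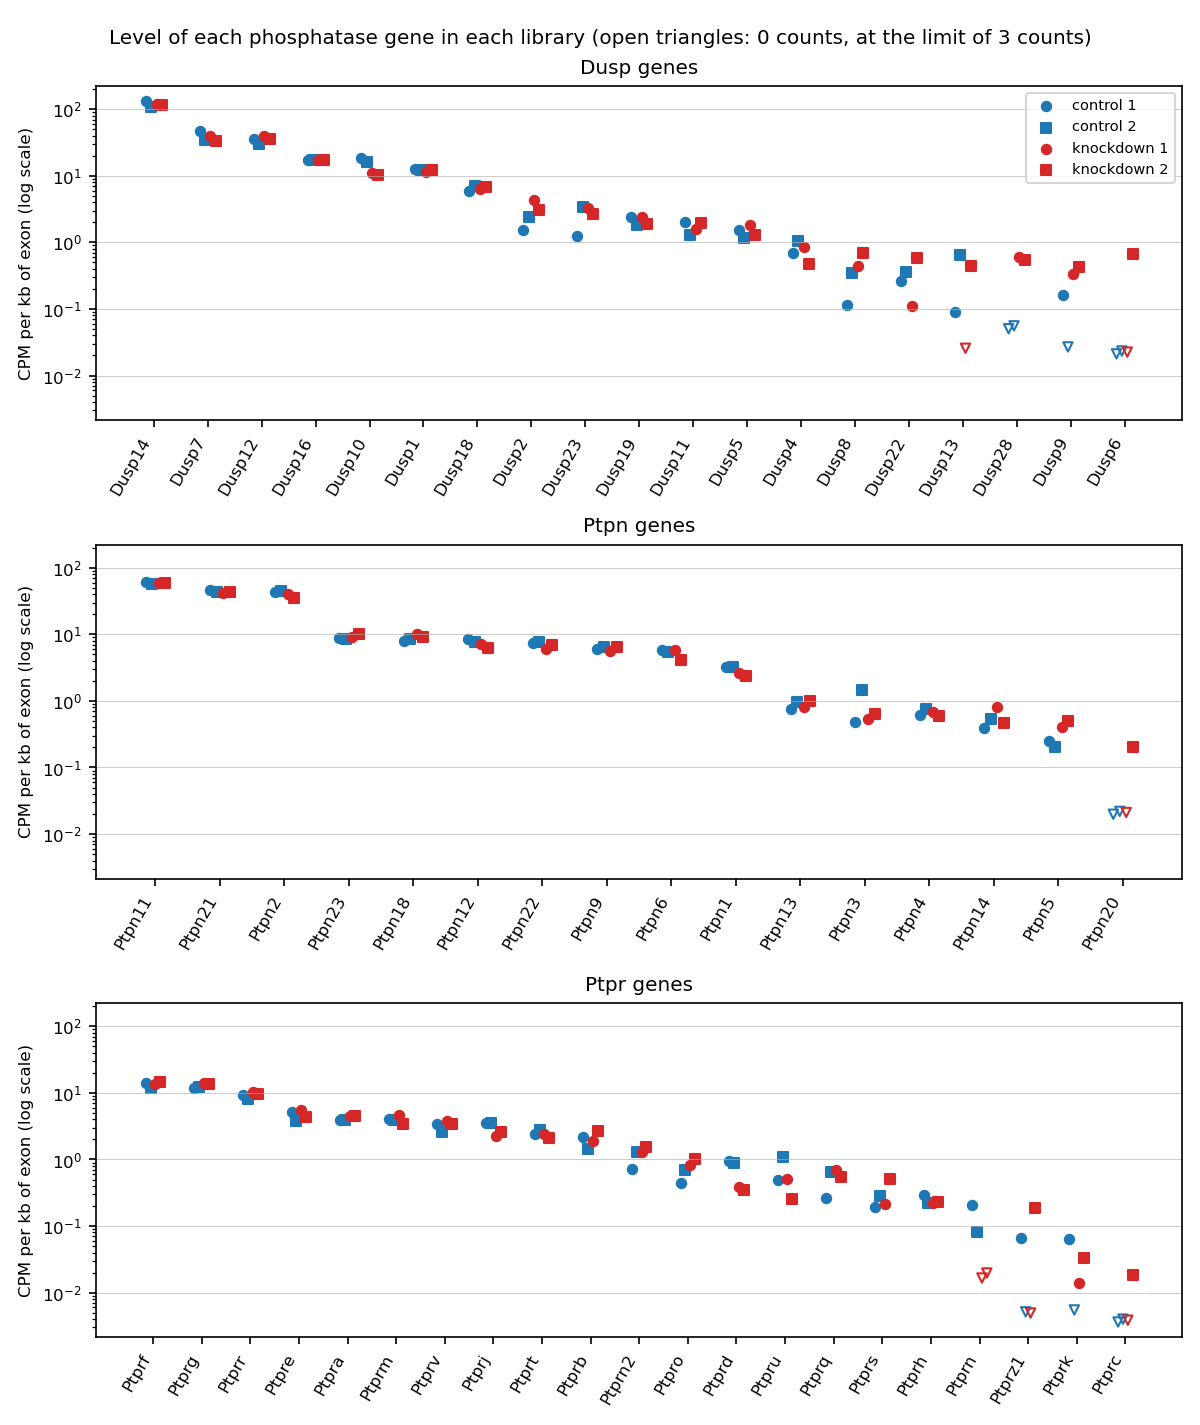
Level of each member with counts, in CPM per kilobase of exon on a log scale, in control replicates 1 and 2 (blue circle and square) and knockdown replicates 1 and 2 (red circle and square), ordered by mean level within each family. Open triangles stand for 0 counts and are drawn at the limit of 3 counts. The 4 libraries lie close together for the abundant members and spread apart at the low end, and Dusp10 and Ptprd are members in which both red points lie below both blue points.

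No Dusp, Ptpn or Ptpr gene passed the test between knockdown and control. The adjusted p of the 53 tested members ran from 0.835 to 0.998 by edgeR. At an unadjusted p under 0.05 there were 3 members, 5.66% of those tested against 5.51% of all tested genes, so the share was near the background. All 3 were lower in the knockdowns, where 2.57% of all tested genes were at that p and lower: Ptprd, Dusp10 and Ptprj. Higher at that p were 0 members, against 2.94% of all tested genes. DESeq2, run as an alternative, called Ptprd and Dusp10 lower. Of the 16818 genes to which it gave an adjusted p, it called 1.77% in either direction and 0.749% lower. At an unadjusted p under 0.05 DESeq2 had 9 members: 4 of 19 Dusp, 1 of 16 Ptpn and 4 of 21 Ptpr genes with counts. Among them were Dusp6, which had counts in knockdown replicate 2 alone, and Dusp28 and Ptprn, each at 0 in both libraries of a group. Of all 21358 genes with counts, 10.2% were at that p. limma-voom called 0 members and 0 genes in all, with 3 members and 4.71% of all tested genes at an unadjusted p under 0.05.

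The separation of the groups was read in the same way. Both knockdown libraries lay below both controls for 11 of the 53 tested members, where the share of all tested genes was 16.8%, and above both controls for 13, where it was 18.0%. Together these were 45.3% of the tested members and 34.9% of all tested genes. The 24 members were 8 in each family, which is 44.4% of the tested Dusp, 53.3% of the Ptpn and 40.0% of the Ptpr genes. The median log2 fold change was 0.04 for the 18 tested Dusp genes, -0.09 for the 15 Ptpn genes and 0.17 for the 20 Ptpr genes, beside 0.00 over all tested genes. Above 0 were 11 Dusp, 5 Ptpn and 13 Ptpr genes. Whether the families differ from one another or from other genes was not tested, and the spread between replicates was of the same order: among the 31 members over 10 CPM the median absolute log2 ratio was 0.14 between the controls, 0.16 between the knockdowns and 0.19 between the group means. Over all 8432 such genes these medians were 0.18, 0.17 and 0.13.

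**Figure D2:**
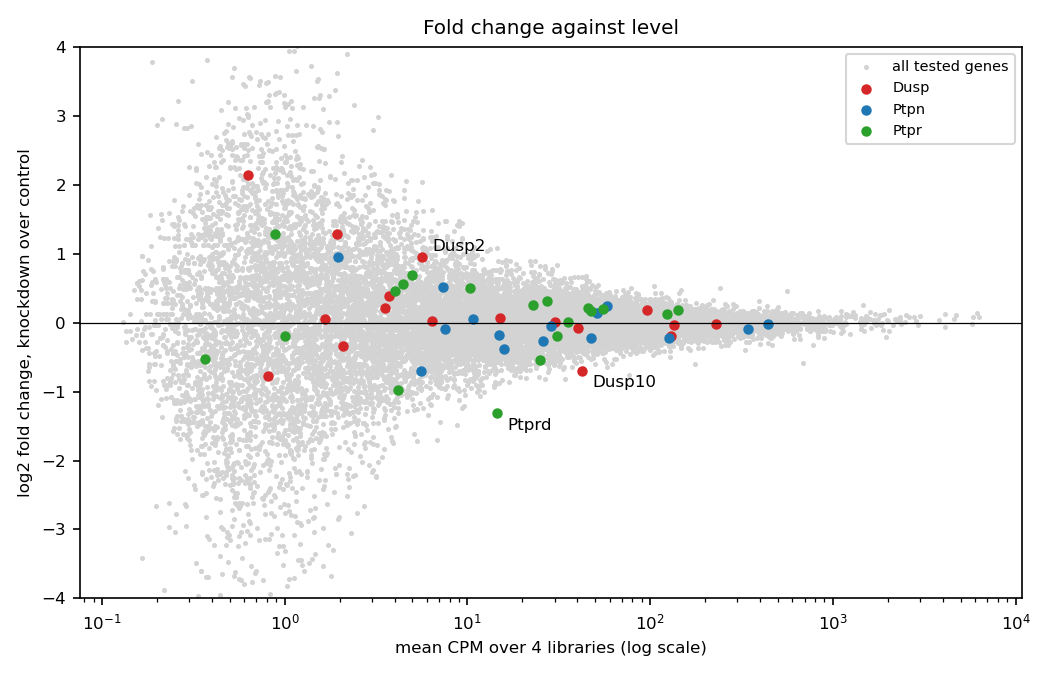
Log2 fold change of knockdown over control against mean CPM (log scale) for all tested genes (grey) and the Dusp (red), Ptpn (blue) and Ptpr (green) members. Fold changes spread widely under 10 CPM, and Ptprd and Dusp10 lie near the lower edge of the genes of their level. The vertical axis ends at 4 in both directions, which leaves out 474 genes, Dusp28 and Ptprn among them.

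Ptprd had the largest difference among the members over 10 CPM. It encodes a receptor phosphatase of the LAR type, with immunoglobulin and fibronectin repeats outside the cell, best known as an adhesion molecule of synapses. The gene lies on chromosome 4 at 75941238 to 78211961 (mm10, minus strand), with 22822 bases of exon. Control counts were 964 and 821 and knockdown counts 369 and 285, which is 21.3 and 20.1 CPM against 8.67 and 7.96 CPM, or means of 20.7 ± 0.89 and 8.31 ± 0.50 CPM (SD, n = 2). Both knockdown libraries lay far below both controls, and the replicates of each group were close to each other. The knockdowns averaged 40.2% of the controls, with a log2 fold change of -1.31 (SE 0.33, 95% interval -2.03 to -0.60). Its unadjusted p of 0.00159 ranked 13th of all tested genes, and the adjusted p was 0.835 by edgeR. Of the 8432 genes over 10 CPM, 1 had a lower log2 fold change, Parp12. By DESeq2 the log2 fold change was -1.32 with an adjusted p of 1.39e-04, and over all alternatives the adjusted p ran from 1.39e-04 to 0.994. Without any 1 library the log2 fold change stayed between -1.38 and -1.25. An antisense gene, B230208B08Rik, covers 0.0307% of its exonic bases. In bulk RNA, fewer cells with a transcript and less of it per cell cannot be told apart, which holds for all values here.

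Ptprd has the LAR relatives Ptprf and Ptprs, and neither was lower in both knockdown libraries. Ptprf, which encodes LAR itself, was the most abundant Ptpr gene per length, with 127 and 108 CPM in the controls against 122 and 135 CPM in the knockdowns, and its groups overlapped. Its log2 fold change was 0.12 (95% interval -0.15 to 0.40), an interval that does not meet that of Ptprd. Ptprs had 2.85 and 4.25 CPM in the controls against 3.22 and 7.51 CPM in the knockdowns, with overlapping groups and a log2 fold change of 0.56 (-0.80 to 1.91). The differences between these genes were not tested.

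Dusp10 was the other member past DESeq2's threshold. It encodes a MAP kinase phosphatase that prefers JNK and p38 over ERK. The gene lies on chromosome 1 at 184013302 to 184075636 (mm10, plus strand). It had 56.5 and 48.8 CPM in the controls against 33.9 and 31.1 CPM in the knockdowns, from 2556 and 1998 counts against 1444 and 1115. The means were 52.7 ± 5.45 and 32.5 ± 1.96 CPM (SD, n = 2). The groups did not overlap, and the gap between them was wider than the distance between replicates. The knockdowns averaged 61.8% of the controls, with a log2 fold change of -0.70 (SE 0.19, 95% interval -1.12 to -0.28). Its unadjusted p was 0.00330 and its adjusted p 0.835 by edgeR. By DESeq2 the adjusted p was 0.00449. Leaving out each library in turn gave log2 fold changes between -0.81 and -0.57. Over 10 CPM, 51 of the 8432 genes had a lower value. The exons of Dusp10 overlapped no other gene.

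**Figure D3:**
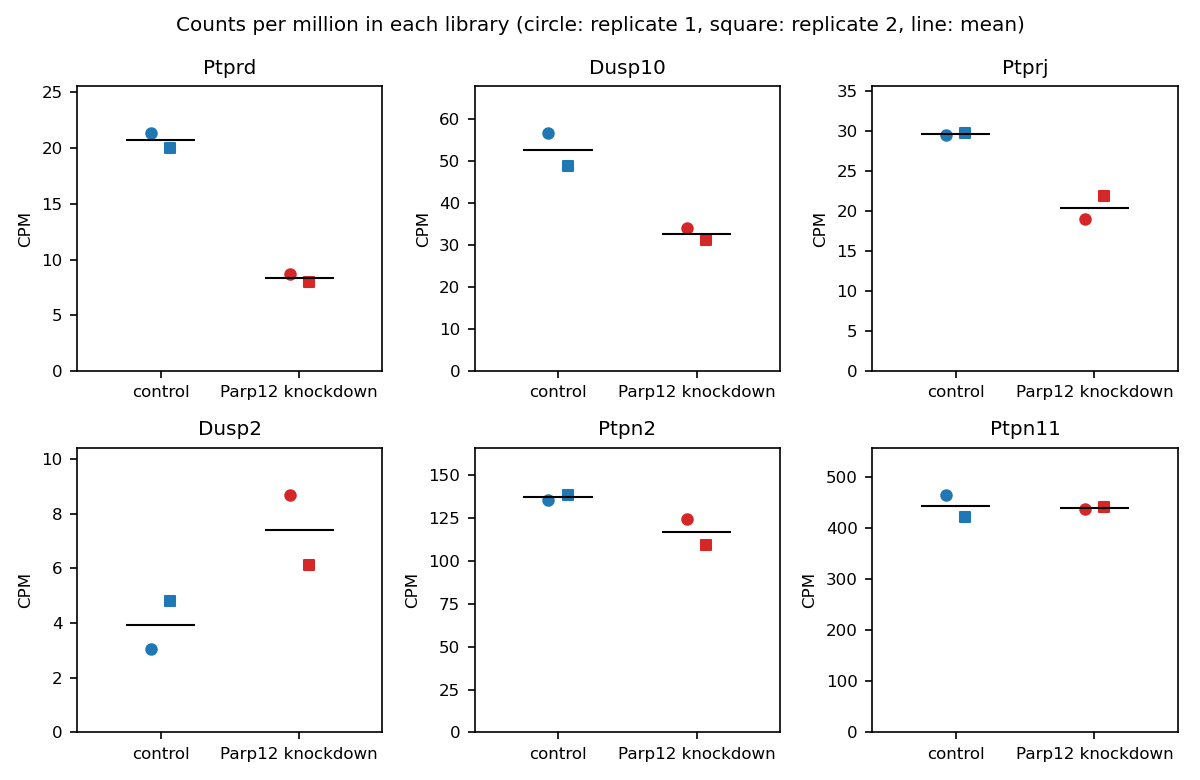
CPM of 6 members in each library, on linear axes that start at 0, with a circle for replicate 1, a square for replicate 2 and a line at the mean of 2 libraries. Ptprd, Dusp10 and Ptprj sit lower in both knockdown libraries, Ptpn2 sits slightly lower, Dusp2 sits higher with wide scatter, and the groups of Ptpn11 overlap.

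Ptprj, the third of the members at an unadjusted p under 0.05, encodes the receptor phosphatase DEP-1 (CD148), which acts on Src family kinases and growth factor receptors. It had 29.4 and 29.7 CPM in the controls against 19.0 and 21.8 CPM in the knockdowns, again without overlap. The log2 fold change was -0.54 (95% interval -1.07 to -0.01), with an unadjusted p of 0.0451 and an adjusted p of 0.835 by edgeR and 0.114 by DESeq2. Without knockdown replicate 1 it was -0.44 with an unadjusted p of 0.200. Of its stretches of 50 nucleotides, 9.65% also occur in transcripts of other genes, so a part of its reads could have been assigned elsewhere.

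Promoter sequence from RefSeq (build GRCm38.p6) was at hand for 50 of the 62 members, as 67 windows of 250 bases before a start site, and Ptprd was not among them. A window each is shown for Dusp10 and Ptprj, which with Ptprd were the members at an unadjusted p under 0.05 by edgeR. That of Ptpn11 is shown as the Ptpn gene with the highest level per length, whose groups overlapped. Other members were lower in both knockdown libraries too. The windows are written in the direction of transcription, with capitals for the GC box GGGCGG and the cAMP response element TGACGTCA. Both were searched on both strands with each match counted separately. The Dusp10 start site lies inside the span that the count table gives the gene.
Dusp10, chr1:184034131-184034380, plus strand: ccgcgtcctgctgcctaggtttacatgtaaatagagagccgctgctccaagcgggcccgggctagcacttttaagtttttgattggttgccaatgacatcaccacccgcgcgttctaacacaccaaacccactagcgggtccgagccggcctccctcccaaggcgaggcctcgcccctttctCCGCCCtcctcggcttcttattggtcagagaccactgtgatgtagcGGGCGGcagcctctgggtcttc
Ptprj, chr2:90580596-90580845, minus strand: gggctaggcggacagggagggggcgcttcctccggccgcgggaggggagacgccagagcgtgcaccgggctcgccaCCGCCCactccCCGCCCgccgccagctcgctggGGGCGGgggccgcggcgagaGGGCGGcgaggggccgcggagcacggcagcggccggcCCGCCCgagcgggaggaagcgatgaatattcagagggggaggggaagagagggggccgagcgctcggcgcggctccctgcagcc
Ptpn11, chr5:121191398-121191647, minus strand: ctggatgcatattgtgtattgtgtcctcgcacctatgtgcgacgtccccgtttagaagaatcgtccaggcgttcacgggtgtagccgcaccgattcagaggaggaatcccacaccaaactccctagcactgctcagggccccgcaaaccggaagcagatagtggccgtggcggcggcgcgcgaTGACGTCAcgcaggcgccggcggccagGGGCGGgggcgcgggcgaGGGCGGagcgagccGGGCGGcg
The Dusp10 window held 2 GC boxes, that of Ptprj 5, and that of Ptpn11 3 with 1 cAMP response element. A second Ptprj start site had a window with 0 of either. GC boxes stood in 36 of the 67 member windows (53.7%) and in 32.7% of 32851 windows of all genes. The cAMP response element stood in 4 member windows (5.97%), those of Dusp1, Dusp8, Ptpn11 and Ptpru, and in 1.55% of all windows. The TATA box TATAAA stood in 2 (2.99%), of Ptprc and Ptpre, against 12.4% of all windows, and the E-box CACGTG in 3 (4.48%) against 6.02%. These matches describe the letters only.

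Among the typical MAP kinase phosphatases, Dusp7 and Dusp16 led. Per kilobase of exon, Dusp7 had a mean level of 38.7 CPM, Dusp16 17.3, Dusp10 14.0 and Dusp1 12.1. Dusp7, an ERK phosphatase of the cytoplasm, had 160 and 117 CPM in the controls against 132 and 111 CPM in the knockdowns. The controls differed from each other by more than the group means did. Its log2 fold change was -0.19 (95% interval -0.52 to 0.14). Without control replicate 1, which holds its highest value, it was 0.08, and without control replicate 2 it was -0.41. Dusp16, which acts on JNK and p38 as Dusp10 does, had 136.8 and 136.9 CPM in the controls against 132.6 and 134.7 CPM in the knockdowns, for a log2 fold change of -0.04 (-0.27 to 0.20). Dusp1, an immediate early gene of stress and growth factor responses, had 41.8 and 40.5 CPM in the controls against 38.2 and 39.8 CPM in the knockdowns, for a log2 fold change of -0.08 (-0.49 to 0.33). The groups of both genes did not overlap, but by margins of a few percent.

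Dusp2, Dusp4, Dusp5, Dusp8 and Dusp9 were scarce. Dusp2, an inducible nuclear enzyme, had 3.05 and 4.81 CPM in the controls against 8.69 and 6.14 CPM in the knockdowns, and both knockdown libraries lay above both controls. Its log2 fold change was 0.95 (95% interval -0.19 to 2.09), with an unadjusted p of 0.0962. Dusp8 had 0.553 and 1.71 CPM in the controls against 2.16 and 3.35 CPM in the knockdowns, from 25 and 70 counts against 92 and 120, and a log2 fold change of 1.29 (-0.66 to 3.24). The Dusp8 value was 0.67 without control replicate 1 and 2.27 without control replicate 2. Dusp4 and Dusp5, both nuclear, had at most 4.49 CPM in any library, with overlapping groups. AC137853.2 on the other strand covers 22.1% of the exonic bases of Dusp5, so its values are uncertain. Dusp9, an ERK phosphatase on the X chromosome, had 20 and 0 control counts and 39 and 42 knockdown counts.

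Dusp14 was the most abundant of all members per length, with a mean of 118 CPM per kilobase of exon, rank 364 among all genes. It is a small atypical phosphatase linked to MAP kinase and T cell receptor signalling. Its libraries held 257 and 207 CPM in the controls against 234 and 224 CPM in the knockdowns, so that the controls enclosed the knockdowns, and the log2 fold change was -0.02 (95% interval -0.26 to 0.21). Dusp12, which carries a zinc-binding domain, had 97.0 and 83.1 CPM in the controls against 107 and 98.0 CPM in the knockdowns, above both controls by a narrow margin. Its log2 fold change was 0.19 (-0.11 to 0.48). Exons of genes on the other strand, Gm26620 and Gm9929, cover 49.8% of its exonic bases, and 43.4% of its stretches of 50 nucleotides occur in other transcripts. The sources used here do not say whether counting used strand, so the values of Dusp12 are uncertain. Dusp18 had 27.5 to 32.2 CPM in all libraries, and Dusp11, an RNA phosphatase, 11.3 to 17.9 CPM. Dusp19 and Dusp23 lay between 1.75 and 7.30 CPM, and Dusp22 and Dusp13 between 0 and 2.93 CPM, all with overlapping groups.

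Dusp28 had 0 counts in both controls and 34 and 26 counts in the knockdowns. The knockdown mean of 0.762 CPM was at least 10.9-fold higher than the control limit of 3 counts per library. The unadjusted p was 0.0534 and the adjusted p 0.835 by edgeR, so the difference did not pass. Ptprn had the opposite pattern, with control counts of 40 and 14 and 0 in both knockdowns, at least 7.95-fold lower against the same kind of limit, and an unadjusted p of 0.0838. Ptprn encodes a receptor-like protein of secretory granules that lacks phosphatase activity. Both genes entered the test through the group in which they had counts.

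The Ptpn family was led, per length, by Ptpn11, Ptpn21 and Ptpn2, and 0 of its 15 tested genes passed. Ptpn11, which encodes SHP2, a phosphatase with SH2 domains that is needed for growth factor signals to reach ERK, had 465 and 422 CPM in the controls against 438 and 442 CPM in the knockdowns. The log2 fold change was -0.02 (95% interval -0.19 to 0.15). Ptpn21, a phosphatase with a FERM domain that binds the membrane skeleton, had 363 and 342 CPM in the controls against 326 and 336 CPM in the knockdowns, for a log2 fold change of -0.09 (-0.27 to 0.08). The intervals of both genes exclude a change of 1.5 times, and their levels per kilobase of exon were 58.9 and 43.3 CPM.

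Ptpn2 and Ptpn1 encode the related enzymes TC-PTP and PTP1B, which act on JAK kinases and on the insulin receptor. Ptpn2 had 136 and 139 CPM in the controls against 125 and 109 CPM in the knockdowns, without overlap. Its log2 fold change of -0.23 (95% interval -0.48 to 0.02) had the smallest unadjusted p of the family, 0.0734. Ptpn1 had 17.9 and 18.0 CPM in the controls against 14.4 and 13.1 CPM in the knockdowns, for a log2 fold change of -0.38 (-1.04 to 0.27). The controls of Ptpn1 were almost equal, and both knockdowns lay below them.

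The PEST phosphatases, named for a stretch of sequence that shortens the life of proteins, went in different directions without passing the test. Ptpn18 had 50.9 and 55.1 CPM in the controls against 66.6 and 58.7 CPM in the knockdowns, for a log2 fold change of 0.24 (95% interval -0.11 to 0.60). Ptpn22, best known from lymphocytes, had 50.5 and 52.0 CPM in the controls against 41.5 and 46.6 CPM in the knockdowns, for a log2 fold change of -0.23 (-0.61 to 0.16). Ptpn12, a regulator of focal adhesions, had 29.6 and 26.7 CPM in the controls against 25.1 and 21.8 CPM in the knockdowns, with -0.26 (-0.79 to 0.26). None of the 3 genes had overlapping groups.

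Ptpn23, which encodes a phosphatase-related protein of endosomal sorting, had 48.8 and 48.1 CPM in the controls against 51.2 and 56.0 CPM in the knockdowns, with a log2 fold change of 0.14 (95% interval -0.23 to 0.51). Ptpn9 had 26.0 to 30.5 CPM in all libraries, and Ptpn6, which encodes SHP1, 11.6 to 16.6 CPM. The other FERM domain genes were much lower than Ptpn21, at a mean of 0.551 CPM per kilobase of exon for Ptpn14, 0.666 for Ptpn4, 0.775 for Ptpn3 and 0.884 for Ptpn13, and their groups overlapped. Ptpn3 had 430 counts in control replicate 2 and between 156 and 165 in the other libraries. For Ptpn5 the control counts were 66 and 48 and the knockdown counts 100 and 102, a log2 fold change of 0.96 (-0.86 to 2.77).

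**Figure D4:**
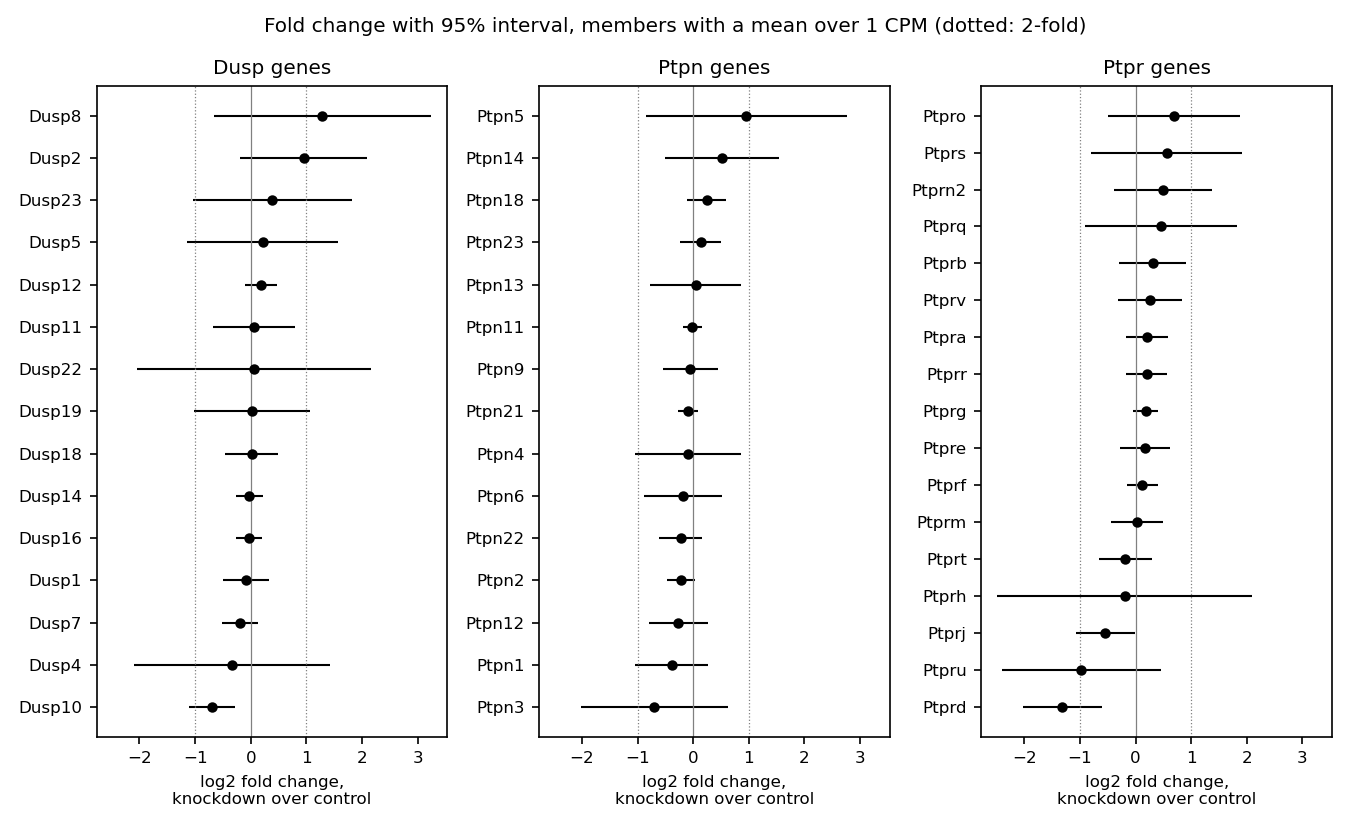
Log2 fold change of knockdown over control by edgeR, with a 95% interval derived from its test. The 47 tested members with a mean over 1 CPM are ordered by value within each family, with dotted lines at a 2-fold change. The intervals of Ptprd, Dusp10 and Ptprj do not reach 0, and those of the other members include it.

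Most of the abundant receptor-like genes had log2 fold changes a little above 0. Ptprg, which carries a carbonic anhydrase domain outside the cell, had 130 and 135 CPM in the controls against 153 and 147 CPM in the knockdowns, both above both controls. Its log2 fold change was 0.18 (95% interval -0.05 to 0.41), with an unadjusted p of 0.114. Ptprr, which binds and dephosphorylates ERK through a kinase interaction motif, had 54.8 and 47.7 CPM in the controls against 61.6 and 56.2 CPM in the knockdowns, with 0.20 (-0.17 to 0.57). Exons of Taf7l2 on the other strand cover 10.96% of its exonic bases. Ptpra, an activator of Src family kinases, had 42.8 and 42.0 CPM in the controls against 48.9 and 49.1 CPM in the knockdowns, with 0.21 (-0.18 to 0.59). In these 3 genes the groups did not overlap, and none passed the test.

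Ptpre, the relative of Ptpra with a short ectodomain, differed by replicate more than by group, with 52.0 and 38.1 CPM in the controls against 57.1 and 44.0 CPM in the knockdowns. Ptprm, a homophilic adhesion molecule, had 36.1 and 34.3 CPM in the controls against 40.4 and 30.4 CPM in the knockdowns, for a log2 fold change of 0.02 (95% interval -0.45 to 0.48). Its relatives with a MAM domain were Ptprt, at 26.9 to 35.5 CPM, Ptpru, at 1.82 to 7.72 CPM, and Ptprk, at 0 to 0.840 CPM, all with overlapping groups. Among those with fibronectin repeats, Ptprb, known from endothelial cells, had 29.1 and 18.9 CPM in the controls against 25.2 and 35.8 CPM in the knockdowns. Ptprv had 23.5 and 17.9 CPM in the controls against 26.3 and 23.6 CPM in the knockdowns. GENCODE release M21 annotates it as a processed transcript. Ptpro had 3.01 and 4.64 CPM in the controls against 5.47 and 6.87 CPM in the knockdowns. Ptprq, Ptprh, Ptprn2 and Ptprz1 lay between 0 and 13.1 CPM, and their groups overlapped.

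How much these data can exclude depended on the level. For 26 of the 53 tested members the 95% interval lay inside a 2-fold change in either direction, where 46.7% of all tested genes did. These were 26 of the 31 members over 10 CPM (7 of 8 Dusp, 10 of 11 Ptpn and 9 of 12 Ptpr genes) and 0 of the 22 at or below it. Of all tested genes, 7337 of 8432 over 10 CPM and 79 of 7436 at or below it had such an interval. Over 10 CPM the members without such an interval were Dusp10, Ptpn1, Ptprd, Ptprj and Ptprn2. The intervals of Dusp2, Dusp4, Dusp5 and Dusp8 were among those that reached past a 2-fold difference.

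By edgeR the MAP kinases and their activators gave 0 calls, and DESeq2 called 1 gene of each list. Over all genes DESeq2 called 1.77% of those with an adjusted p, and 5.51% of tested genes had an unadjusted p under 0.05 by edgeR. Of 12 tested MAP kinases, 0 passed by edgeR, and at an unadjusted p under 0.05 there was 1 that was lower and 1 that was higher. The median log2 fold change was 0.01. DESeq2 called Mapk7. Mapk6, an atypical kinase of the family and the gene with the smallest p, had 139 and 101 CPM in the controls against 81.8 and 93.8 CPM in the knockdowns (log2 fold change -0.47, unadjusted p 0.0125). The other was Mapk7 (ERK5), at 4.71 and 4.59 CPM in the controls against 10.3 and 11.3 CPM in the knockdowns. Mapk7 and the 3 kinases that follow were picked with their values in view. The ERK gene Mapk3 had a log2 fold change of -0.03, and the JNK gene Mapk8 and the p38 gene Mapk14, whose products Dusp10 acts on, 0.02 and 0.00. Of 17 activators 0 passed, with 1 lower at an unadjusted p under 0.05. It was Mos, the kinase that starts the ERK cascade in oocytes, at 417 and 444 CPM in the controls against 367 and 383 CPM in the knockdowns, for a log2 fold change of -0.20 (adjusted p of 0.835 by edgeR and 0.0350 by DESeq2).

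Among 23 tested receptor tyrosine kinases 0 passed, with a median log2 fold change of -0.12 and 1 lower at an unadjusted p under 0.05. That gene, Axl, had 0.840 and 1.71 CPM in the controls and was at 0 in both knockdowns. Axl thus entered the test through the controls, the group in which it had counts. Of all tested genes 2.57% were lower at that p by edgeR. Of 18 tested cytoplasmic tyrosine kinases 0 passed and 0 had an unadjusted p under 0.05, and the median was -0.01. Their smallest p belonged to Ptk2b, at 2.10 and 5.08 CPM in the controls against 8.13 and 5.31 CPM in the knockdowns. Of 26 tested phosphatases with a cysteine active site outside the 3 families, such as the Cdc25 and myotubularin genes, 0 passed and 0 had an unadjusted p under 0.05, with a median of 0.04. Pald1 had their smallest p, with 0.840 and 0.440 CPM in the controls and 0 in both knockdowns. Like Axl, it entered the test through the group in which it had counts. DESeq2 called 0 of the cytoplasmic kinases and 0 of these phosphatases, and 1 receptor kinase, Axl.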

How the data were processed

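Counts per gene of 4 libraries were taken as the authors deposited them, in a table with exon coordinates and summed exon length per gene, per the file headers. Per the labels, poly(A) RNA was prepared with kits for Illumina sequencing. Tools named, without roles, in the submitters' processing notes are STAR 2.7.5b, Trim Galore 0.6.4, DESeq2 1.28.1 and featureCounts 2.0.0, and the build is mm10. Groups and replicate numbers came from sample titles.

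Genes kept by filterByExpr (minimum count 10, total 15) were fitted in R 4.3.3 with edgeR 4.0.16 (TMM, estimateDisp, robust glmQLFit without the legacy option, glmQLFTest), two-sided, with Benjamini-Hochberg adjustment over all 15868. DESeq2 1.42.0 and limma 3.58.1 (voom) were alternatives, beside other scalings and filters, the replicate block and leaving out each library. The tests were also run on simulated counts, with changes of a single size planted in genes over 10 CPM only. That check does not cover smaller changes or lower levels, and its outcome is not reported here. An exact permutation test of a single value cannot go below 0.333 with 2 against 2 libraries, so none is given.

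Members and lists were chosen with earlier results of these data known. Named by rule were Parp12, Dusp10, Ptprd, the 6 members of each family highest per length, the 4 with the smallest p, members at 0 in 1 group only, and the smallest p of each kinase or phosphatase list. The other members are given to account for all 62. Coordinates are mm10, and all members matched GENCODE release M21. A gene of the kinase lists is not reported here.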

Additional observations from a re-analysis of the deposited data

How the results depend on the processing

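Whether any phosphatase gene is called depended on the tool. DESeq2 called 1 Dusp gene (Dusp10) and 1 Ptpr gene (Ptprd) and 297 genes in all, and limma-voom called 0 of any; the cause was not tested. With a minimum of 1 CPM in both libraries of a group edgeR called 8 genes, and leaving out each library in turn gave 1 to 2, with 2 without knockdown replicate 1. A library left alone in this way is taken to have the same spread as the intact group. None of these calls was a Dusp, Ptpn or Ptpr gene. With the replicate number as a block edgeR called 1 gene and 0 members, and the unadjusted p was 0.00283 for Ptprd and 0.00436 for Dusp10. The numbers were not taken to pair the libraries, since the deviations of control replicate 1 and knockdown replicate 1 from their group means correlated at 0.015 over 8432 genes.

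The log2 fold changes of 21 of 26 named members kept their direction under every alternative that gave them a value. The other 5 reversed when 1 library was left out: Dusp14 (-0.18 to 0.15), Dusp7 (-0.41 to 0.075), Ptpn11 (-0.10 to 0.069), Ptpre (-0.042 to 0.43) and Ptprm (-0.22 to 0.19). With 1 library left out, family medians ran from 0.00 to 0.12 for Dusp, -0.10 to -0.01 for Ptpn and 0.02 to 0.24 for Ptpr. The unadjusted p of Dusp10 stayed under 0.05 in all alternatives, with a highest value of 0.0332, and that of Ptprd with a highest value of 0.0124. edgeR's legacy fit, chosen after the data were seen, also called 1 gene and 0 members. The planned search for the catalytic motif in protein sequences, with its alternatives, was not run, since no protein table was used here. Precision was lowest at low levels: none of the 22 tested members at or below 10 CPM had an interval that excluded a 2-fold change. Of all tested genes at that level, 79 of 7436 did.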
